A study of Mus musculus with 2 samples.

Results

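Co-inhibitory receptors are surface proteins that dampen the activation of the lymphocytes that carry them. The 8 described here are Lag3, Pdcd1, Tigit, Ctla4, Havcr2, Cd160, Btla and Pvrig, all 8 present among the 31053 genes of both deposited count tables. They were chosen as a list of names, with no threshold on a measured value, and each is given across leukocyte subsets of the stomach and between mice given interleukin 27 (IL-27) and mice given buffer. Their levels in each subset are described without a test, because each treatment was deposited as 1 library.

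These receptors work at different steps. PD-1 (Pdcd1) and BTLA (Btla) recruit phosphatases that remove signalling marks near the antigen receptor, CTLA-4 (Ctla4) competes with CD28 for CD80 and CD86, and LAG-3 (Lag3) binds MHC class II and other ligands. TIGIT (Tigit) and PVRIG (Pvrig) belong to the nectin receptor family and compete with the activating receptor CD226, TIM-3 (Havcr2) binds several ligands on T cells and myeloid cells, and CD160 (Cd160) and BTLA share the ligand HVEM (Tnfrsf14). Single receptors appear on T cells soon after activation, whereas several together on CD8 T cells are a known feature of long antigen exposure, and IL-27 is known to induce some of them in T cells.

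The mice were TxA23, a line whose transgenic T cell receptor leads to autoimmune gastritis. Each wore a subcutaneous osmotic pump for 4 weeks from the age of 3 months, which held either 800 ng of recombinant IL-27 (covalently joined p28 and EBI3, 4 ug per mL in 200 uL) or PBS. Live CD45+ cells flushed from the gastric mucosa were sequenced with 10x Genomics 5' chemistry. Cells of 3 females were pooled for IL-27, and those of 1 male and 1 female for PBS, all of the transgenic genotype. By their barcode suffixes the cells came from 3 treated wells (IL-27) and from PBS wells 1 and 2, and no label says that a well is a mouse.

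After filtering, 32372 cells remained, 20579 in treated wells and 11793 in PBS, with median depths of 3079 and 2958 UMIs (unique molecules counted per cell). Wells held 5451 to 7549 cells, and pairs of wells shared 46 to 71 barcode sequences, at most 1.08% of the smaller well. UMIs of Y-linked genes were found in PBS well 2 alone (3074 UMIs, 0 in each of the other wells), so sex, mouse and well cannot be told apart wherever PBS well 2 stands apart from PBS well 1. Cells were assigned to gates by raw UMIs of lineage markers, none of them a receptor described here, and 30293 cells fell in a gate. The gates held 2651 conventional CD4, 347 regulatory T, 2263 CD8, 576 Trdc and 3810 other T cells, 455 NK cells and 19657 B cells, besides 162 macrophages, 117 mast cells and 73 conventional dendritic cells. The Trdc gate also carried alpha-beta receptor transcripts (Trac at 248.5 CPM, counts per 1e6 counts), so it is called by its marker and not gamma-delta T. Levels are CPM, UMIs of the gene scaled to the total UMIs of the gate. B cells, where only Btla passed the limits of 20 UMIs and 10 CPM, give a low reference for the other members. RNA made by B cells and RNA from other cells were not told apart there. Intervals cover counting error only.

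**Figure D1:**
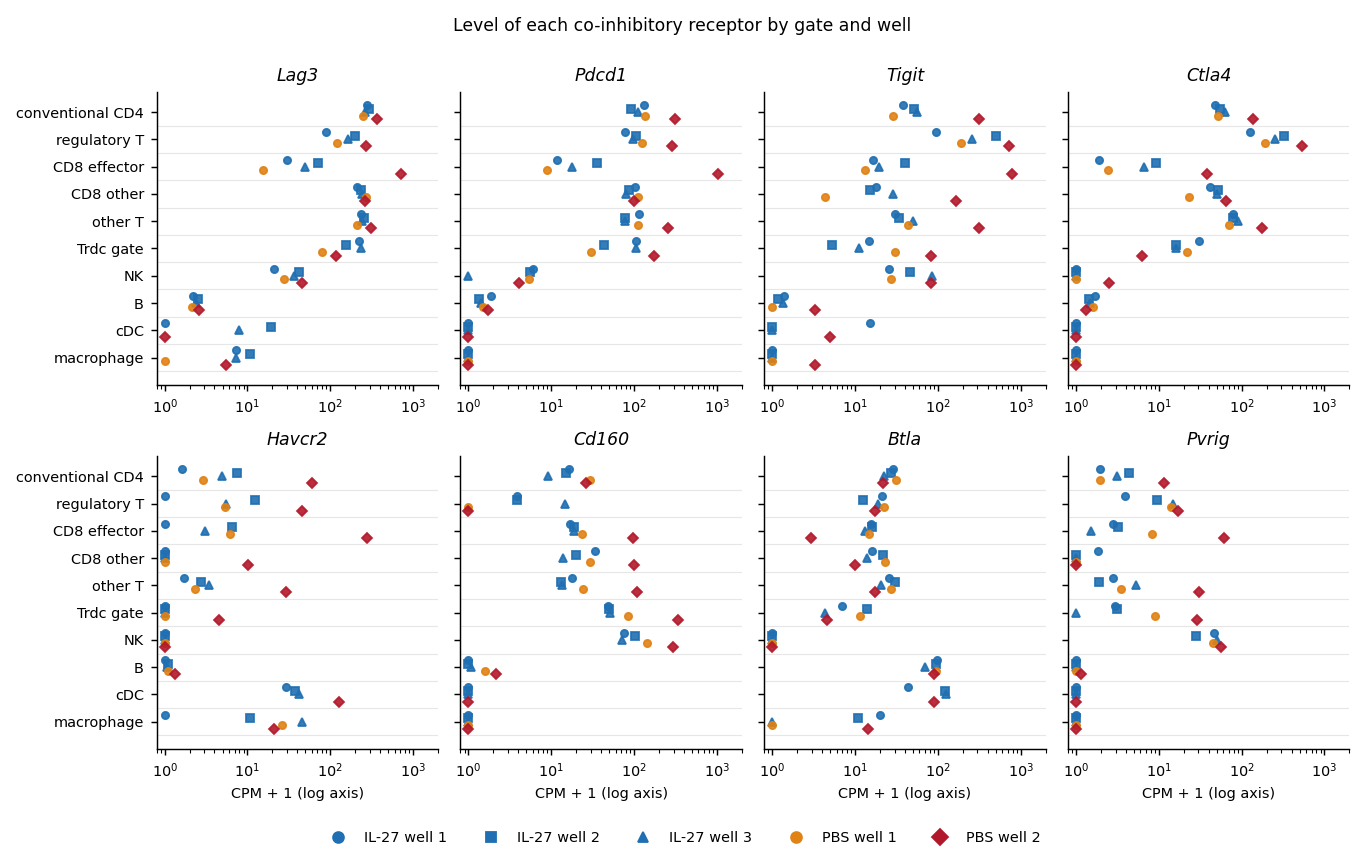
Level of each receptor (CPM plus 1, log axis) by gate, 1 point per well with at least 10 cells in the gate, blue for treated (IL-27) wells, orange for PBS well 1 and red for PBS well 2. In the CD8 effector gate PBS well 2 lies far to the right of the other wells for Lag3 (710.2 CPM), Pdcd1, Tigit and Havcr2, while Btla in B cells is close in all wells.

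Lag3 (ENSMUSG00000030124, GRCm38 chr6:124904361-124911705, minus strand) was highest in subsets of conventional CD4 T cells. In conventional CD4 cells, defined by Cd4 without Cd8a, Cd8b1 or Foxp3, it was 280.2, 294 and 263 CPM in the treated wells and 246 and 366 CPM in PBS wells 1 and 2. The groups overlapped, and the library ratio of IL-27 over PBS was 1.01 (95% interval 0.934 to 1.10). Among subsets it was highest in the Cxcr5 gate, the marker of follicular helper cells, with 463, 310 and 324 CPM in treated wells and 341 and 627 in the PBS wells. The Izumo1r gate, named for folate receptor 4 of anergic and regulatory CD4 cells, came next at 262 to 362 CPM and lay below the Cxcr5 gate in 4 of 5 wells, with overlapping ranges.

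Lag3 was also detected outside CD4 cells. Other T cells, which met no CD4, CD8 or Trdc rule, had 210.5 to 305 CPM, and CD8 cells outside the effector gate 211 to 273 CPM. Regulatory T cells had 89.1, 199 and 163 CPM in treated wells and 120.02 and 268 in PBS wells, NK cells 20.03 to 44.3 CPM and B cells 1.11 to 1.60 CPM. Plasmacytoid dendritic cells, a known Lag3-bearing type, gave 203 CPM from 55 UMIs, but the gate held 44 cells, 2 of them in IL-27 well 2, and was not compared. Mast cells of PBS well 2 gave 77.1 CPM from 19 UMIs in 108 cells.

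In the Trdc gate Lag3 was higher in IL-27. It was 218, 156 and 233 CPM in treated wells and 79.1 and 116 in PBS, and the lowest treated well lay above both controls. The library ratio was 2.02 (1.61 to 2.57), or 2.59 and 1.76 when PBS well 1 or 2 alone was the control. With each cell thinned to 1000 UMIs, 14.4%, 18.0% and 20.9% of treated and 10.98% and 10.2% of PBS cells held a Lag3 UMI, against 0.0859% to 0.186% of B cells by well. Unthinned, these shares were 37.0%, 34.8% and 45.9% against 23.2% and 32.1%, at median depths of 3644 to 3663 and 4148 and 4839 UMIs. In this gate 9.67% of 8097 genes were at least 1.5-fold higher in IL-27, 24.1% had wells that did not overlap and 12.2% had both, so such a difference is common there. Of 6 receptors measured in it 2 were higher, Lag3 and Ctla4, and 3 lower, Tigit, Cd160 and Pvrig, where 12.5% of genes were lower. Ctla4 rested on 31 and 11 UMIs, with a ratio of 1.71 (0.834 to 3.76) and overlapping wells. Tigit and Pvrig were under 10 CPM in IL-27 and could be measured only through PBS, so they could not have been called higher. Tigit had 13.9, 4.27 and 10.1 CPM in treated wells and 29.0 and 81.1 in PBS wells, without overlap. The Trdc gate was 1 of 20 gates compared, and erythroid markers summed to 1120 CPM in IL-27 well 2, far above the other wells, a part that was not tested.

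Pdcd1 (ENSMUSG00000026285, chr1:94038305-94052553, minus strand) had a different pattern in the same CD4 cells. Conventional CD4 wells had 131, 90.5 and 110.3 CPM in treated wells and 136 and 311 in PBS, and regulatory T wells 77.6, 105 and 95.3 against 124 and 288. In both gates the highest treated well was below both PBS wells, though by little against PBS well 1. The PBS library was 1.59-fold higher in conventional CD4 (1.43 to 1.78) and 2.24-fold in regulatory T cells (1.69 to 2.98). Against PBS well 1 alone these folds were 1.21 (1.06 to 1.39) and 1.34 (0.855 to 2.03), both under 1.5. Wells did not overlap for 21.6% of genes in the conventional CD4 gate and 20.2% in the regulatory T gate. Pdcd1 was highest in the CD8 effector gate because of PBS well 2, and without that well its highest gate was Cxcr5 CD4, where the wells overlapped at 158 to 213 CPM in treated wells and 182 and 217 in PBS. Dendritic cells and macrophages had 0 UMIs.

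Tigit (ENSMUSG00000071552, chr16:43648867-43664146, minus strand) and Ctla4 (ENSMUSG00000026011, chr1:60887000-60915832, plus strand) were led by regulatory T cells, where both are known to be constitutive. Tigit in regulatory T cells was 94.8, 496 and 259 CPM in treated wells and 189 and 730 in the PBS wells. Ctla4 was 124, 326 and 250 CPM in treated wells and 189 and 535 in the PBS wells. For both genes the treated wells spread over more than 2-fold and PBS well 1 lay inside their range. The PBS library was 1.65-fold higher for Tigit (1.39 to 1.97) and 1.56-fold for Ctla4 (1.28 to 1.90), but against PBS well 1 both turned to higher in IL-27, by 1.496-fold (1.09 to 2.10) and 1.25-fold (0.903 to 1.75). Conventional CD4 cells had 37.4, 49.9 and 55.2 CPM of Tigit in treated wells against 27.6 and 315 in PBS wells 1 and 2. Ctla4 there was 47.1 to 61.6 CPM in treated wells against 50.9 and 137 in PBS wells 1 and 2. B cells gave at most 0.684 CPM of Ctla4 in any well, and Tigit reached 2.32 CPM in B cells of PBS well 2 (29 UMIs) against at most 0.391 in other wells.

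In the conventional CD4 gate 7 receptors passed the limits of 20 UMIs and 10 CPM, and 4 of them were at least 1.5-fold lower in IL-27, namely Pdcd1, Tigit, Havcr2 and Cd160. None was higher, while 1.82% of 7902 genes were lower by that fold and 1.73% higher. Havcr2, at 3.46 CPM in IL-27 and 15.8 in PBS, passed the limit of 10 CPM only through PBS and could not have been called higher. The median log2 ratio was -0.67 over the 7 receptors and 0.01 over all genes. Without PBS well 2 the count fell to 2, and these were Cd160, which stayed lower, and Tigit, which was then 1.70-fold higher in IL-27 (1.29 to 2.28), beside 3.7% of genes higher and 1.42% lower. In the regulatory T gate 3 of 5 were lower and none higher, where 9.76% of 7360 genes were lower and the medians were -0.64 and -0.03. That count was 0 without PBS well 2, where 27.2% of genes differed, and 1 without IL-27 well 1.

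**Figure D2:**
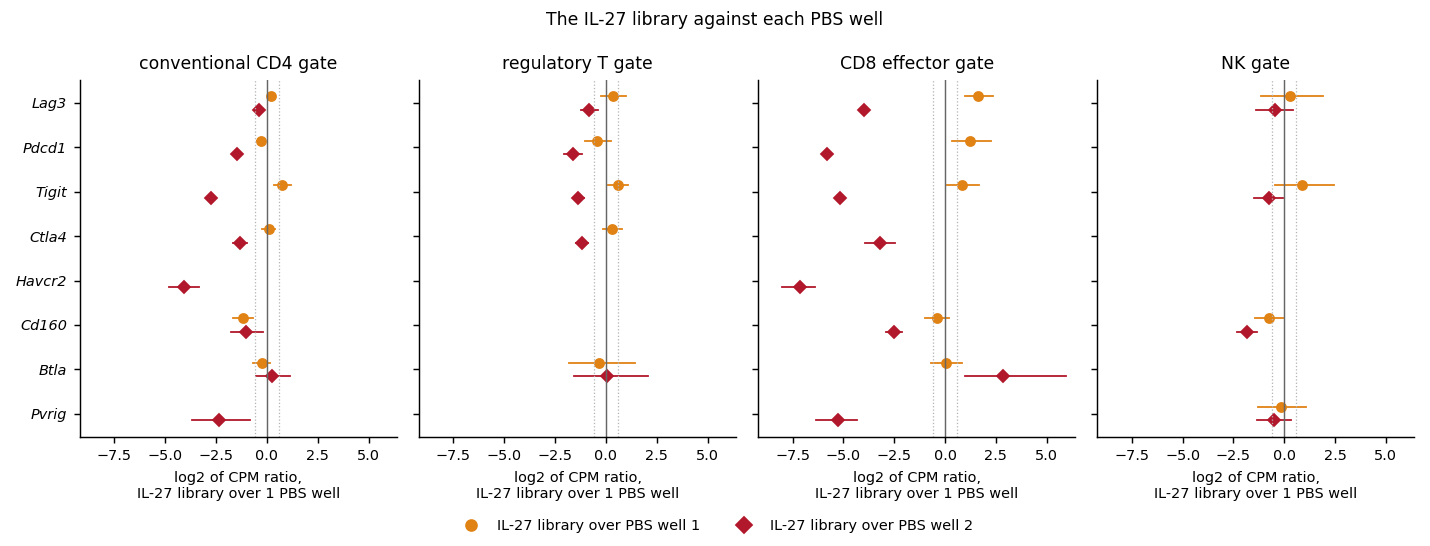
Log2 ratio of the summed IL-27 library over PBS well 1 (orange) or PBS well 2 (red) for receptors with at least 20 UMIs and 10 CPM in that pair, with exact 95% intervals of counting error; dotted lines mark 1.5-fold. In the CD8 effector gate Lag3, Pdcd1 and Tigit lie right of 0 against PBS well 1 and far left of 0 against PBS well 2, whereas Cd160 is left of 0 against both wells in all 3 gates that show it.

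The CD8 effector gate (CD8 cells with Nkg7 or Ccl5) held the widest differences, and they lay between the PBS wells. It had 563, 304 and 285 cells in treated wells against 213 and 223 in PBS wells 1 and 2. Lag3 was 29.4, 69.3 and 48.0 CPM in treated wells against 14.5 and 710.2 in PBS wells 1 and 2. Pdcd1 was 10.6, 34.9 and 16.8 CPM in treated wells against 8.0 and 1030.4 in PBS wells 1 and 2. Tigit was 15.3, 38.8 and 18.4 CPM in treated wells against 12.4 and 796 in PBS wells 1 and 2. Havcr2 (ENSMUSG00000020399, chr11:46454935-46481255, plus strand) was at 0 UMIs in IL-27 well 1, 5.54 and 2.04 CPM in the other treated wells against 5.09 and 277 in PBS wells 1 and 2. PBS well 1 thus lay below the treated wells for Lag3, Pdcd1 and Tigit, and PBS well 2 stood apart from every other well.

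Over these PBS wells 7 of the 8 receptors were at least 1.5-fold higher in well 2, with 1 lower. In that comparison 49.8% of 7857 genes were higher and 10.1% lower by that fold, so calls there are common. The median log2 ratio was 4.73 over the 8 receptors and 0.56 over all genes. The limit of 10 CPM had to be met in 1 of the wells only, for all genes alike. Pdcd1, Ctla4, Havcr2 and Pvrig lay under it in PBS well 1, so they could not have been called lower. Their ratios could enter the median of 4.73 only as higher. Btla lay under the limit in PBS well 2 and could not have been called higher, so its ratio could enter only as lower. The medians are therefore a description. Lag3 was 48.8-fold higher (31.4 to 80.4), Pdcd1 129-fold (71.7 to 259), Tigit 64.3-fold (39.9 to 111) and Havcr2 54.5-fold (26.1 to 137). Ctla4 was 36.9 against 1.45 CPM, the latter from 2 UMIs, a ratio of 25.4 (6.55 to 217). Pvrig (ENSMUSG00000109713, chr5:138341961-138343557, plus strand) was 60.2 against 7.27 CPM, a ratio of 8.27 (4.21 to 18.1). Btla, common on resting lymphocytes, went the other way, at 1.94 CPM (2 UMIs) against 13.8, and 12.2 to 14.96 in treated wells.

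**Figure D3:**
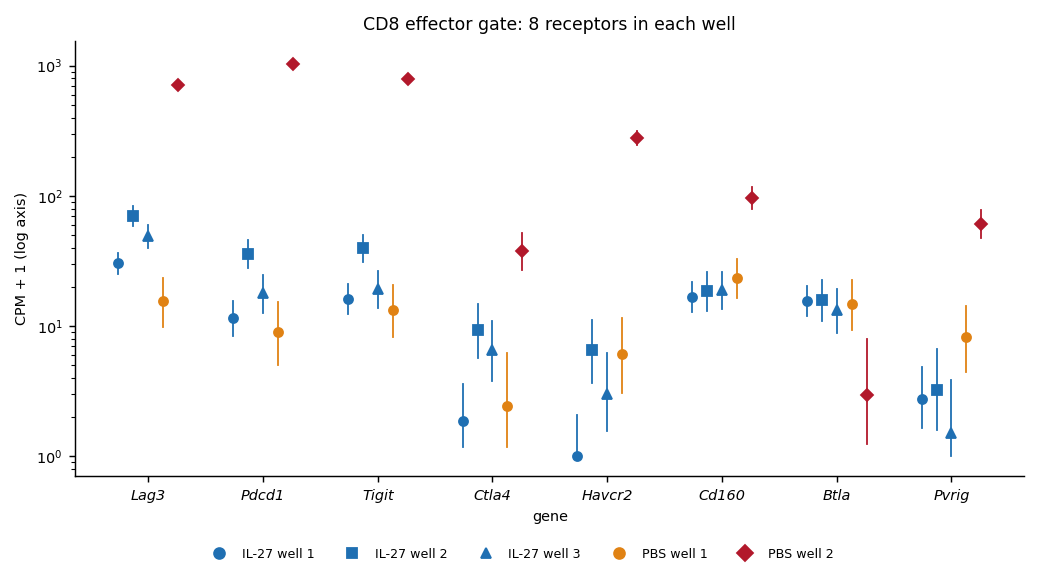
The 8 receptors in the CD8 effector gate (CPM plus 1, log axis), 1 point per well with its exact 95% Poisson interval. PBS well 2 (red) is highest for all receptors but Btla, where it is lowest at 1.94 CPM, and PBS well 1 (orange) stays near the treated wells.

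Between the libraries, the CD8 gate as a whole had 6 of 8 receptors at least 1.5-fold lower in IL-27 and none higher, beside 11.7% of 7654 genes lower. Of these, Havcr2 (1.45 against 94.5 CPM) and Pvrig (1.24 against 23.2) passed the limit of 10 CPM only through PBS and could not have been called higher. Without PBS well 2 the count of receptors apart was 2, and these were Tigit, 2.20-fold (1.38 to 3.74), and Ctla4, 1.94-fold (1.14 to 3.55), both higher in IL-27, as were 3.44% of genes. Both were under 10 CPM in PBS well 1 and passed the limit only through IL-27. In the effector gate against PBS well 1 alone 3 of 5 were higher, where 6.13% of 7210 genes were, namely Lag3 3.06-fold (1.95 to 5.08), Pdcd1 2.30-fold (1.25 to 4.73) and Tigit 1.78-fold (1.08 to 3.14). Pdcd1, under 10 CPM in PBS well 1, passed the limit only through IL-27. In the other CD8 cells, where PBS well 2 held 16 cells, Lag3 was 211, 235 and 239 CPM in treated wells and 273 and 263 in PBS, and Pdcd1 was 102, 85.5 and 79.2 against 109.5 and 99.8. These CD8 cells had 658 CPM of Izumo1r.

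Genes known with these receptors differed between the PBS wells in the same gate. Tox, which sustains inhibitory receptor expression in chronically stimulated CD8 cells, was 426 CPM in PBS well 2, 40.7 in PBS well 1 and 52.9 to 62.6 in treated wells. Entpd1 was 270 CPM in PBS well 2 and 3.06 to 9.98 in all others. It belongs to the list of other inhibitory receptors, which did not go 1 way. Of 10 measured there 6 were higher in PBS well 2 and 4 lower, with a median log2 ratio of 1.26. Tcf7, of naive and memory cells, was 19.4 CPM in PBS well 2 and 264 to 314 in all others. These genes were named after their values were seen. Of the listed regulators of the receptors 12 of 17 measured were higher in PBS well 2 and 5 lower, with a median log2 ratio of 1.72, and of the costimulatory receptors 8 of 11 were higher and 2 lower, with a median of 0.74. Over all genes there 49.8% were higher and 10.1% lower, with a median of 0.56. Against PBS well 1 the IL-27 library had 2 regulators higher and 2 lower of 12, where 6.13% of genes were higher and 2.57% lower.

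RNA of other cell types was also higher in the CD8 effector cells of PBS well 2. The 6 B-cell markers summed to 162 CPM there and 75.6 to 83.8 in the other wells. The 4 myeloid markers summed to 183 CPM against 71.9 to 85.9, and the 5 epithelial markers to 102 CPM against 2.55 to 18.5, with 4 of 5 detected, Krt8 at 0 and Tff1 at 75.7 CPM. Median depth was 4137 UMIs in PBS well 2 and 5790 to 6716 in the others. The B cells of that well had 1.60 CPM for Lag3, 0.721 for Pdcd1 and 0.321 for Havcr2. The part of these other transcripts in the result was not tested.

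Several receptors were found in the same CD8 cells of PBS well 2. With cells thinned to 1000 UMIs, 69.3% of its 218 CD8 effector cells held at least 2 of the 8 receptors and 37.6% at least 3. In the other wells at least 2 were found in 0.469% to 2.33% of cells. Unthinned, at least 2 were found in 92.8% of cells of PBS well 2 and in 6.57% to 12.5% of cells elsewhere. Unthinned shares of single receptors in that well were 87.9% for Pdcd1 and Tigit, 81.2% for Lag3 and 55.6% for Havcr2. After thinning they were 57.8% for Pdcd1, 54.1% for Tigit, 50.5% for Lag3 and 25.2% for Havcr2, against 0.133%, 0.318%, 0.186% and 0.0265% of thinned B cells of that well. Lag3-positive cells carried Tigit in 63.6% and Lag3-negative cells in 44.4% (110 and 108 cells). In sparse counts of 1 well this is a description only.

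**Figure D4:**
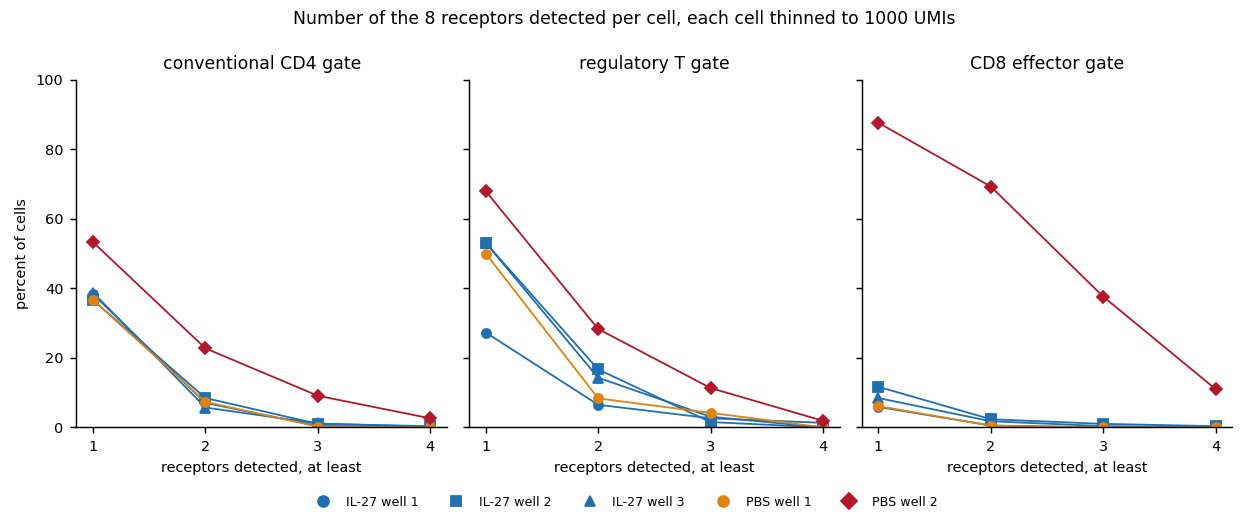
Percent of cells in which at least 1, 2, 3 or 4 of the 8 receptors were detected after thinning every cell to 1000 UMIs, by well, in 3 gates. In the CD8 effector gate PBS well 2 starts at 87.6% and lies far above the other wells, and in the conventional CD4 gate its gap is smaller, at 53.2% against 36.6% to 38.8%.

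Conventional CD4 cells also carried several receptors. At least 1 receptor was found in 38.2%, 36.6% and 38.8% of thinned cells in treated wells against 36.6% and 53.2% in PBS wells 1 and 2, with 2 or more in 5.70% to 8.44% of cells outside PBS well 2 and 22.7% in it. Lag3 itself was caught in 21.2%, 23.7% and 22.9% of thinned conventional CD4 cells in IL-27 and in 20.04% and 22.7% in PBS, with overlapping groups. Unthinned, Lag3 was found in 47.8%, 51.2% and 49.7% against 47.3% and 40.9% of them, at median depths of 3609 to 3829 UMIs, and in 0.299% to 0.487% of B cells, at 2576 to 3050 UMIs. In PBS well 2 Pdcd1 reached 23.4% of thinned cells (7.62% to 12.8% in the others), Tigit 20.1% (2.80% to 4.43%) and Havcr2 5.84% (0.135% to 0.331%). Unthinned, the shares in PBS well 2 were 40.3%, 42.1% and 9.43%. In thinned B cells of the same well they were 0.133%, 0.318% and 0.0265%. Regulatory T cells of PBS well 2 held 2 or more receptors in 28.3% of thinned cells, and those of the other wells in 6.49% to 16.7%.

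Sequences upstream of 4 of these genes are shown, Pdcd1, Tigit, Havcr2 and Cd160. In CD8 effector cells all 4 were higher in PBS well 2 than in the other wells, so Cd160 is not a contrast gene there. NFAT, which binds GGAAA, and AP-1, which binds TGANTCA, are known to drive Pdcd1 and other activation genes after antigen receptor signalling. Each run is the 250 bases before the RefSeq transcript start (GRCm38.p6), 5' to 3' on the gene's strand, with capitals where a motif matches on either strand, the 2 motifs sharing no base here. Pdcd1 lies at chr1:94052554-94052803 (minus), Tigit at chr16:43664185-43664434 (minus), Havcr2 at chr11:46454681-46454930 (plus) and Cd160 at chr3:96829352-96829601 (minus).
Pdcd1: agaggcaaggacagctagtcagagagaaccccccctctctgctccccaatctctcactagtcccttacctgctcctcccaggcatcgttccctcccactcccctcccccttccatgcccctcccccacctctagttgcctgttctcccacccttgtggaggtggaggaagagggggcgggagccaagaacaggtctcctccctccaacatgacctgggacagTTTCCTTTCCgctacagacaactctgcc
Tigit: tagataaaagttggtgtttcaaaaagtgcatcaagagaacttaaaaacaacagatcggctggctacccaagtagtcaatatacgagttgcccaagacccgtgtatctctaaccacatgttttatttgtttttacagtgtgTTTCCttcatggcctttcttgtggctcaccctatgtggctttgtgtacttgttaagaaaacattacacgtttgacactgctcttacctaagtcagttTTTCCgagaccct
Havcr2: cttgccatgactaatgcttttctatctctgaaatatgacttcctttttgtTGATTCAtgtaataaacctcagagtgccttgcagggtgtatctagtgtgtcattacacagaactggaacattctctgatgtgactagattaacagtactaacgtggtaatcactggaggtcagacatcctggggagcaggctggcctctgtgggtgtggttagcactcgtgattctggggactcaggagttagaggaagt
Cd160: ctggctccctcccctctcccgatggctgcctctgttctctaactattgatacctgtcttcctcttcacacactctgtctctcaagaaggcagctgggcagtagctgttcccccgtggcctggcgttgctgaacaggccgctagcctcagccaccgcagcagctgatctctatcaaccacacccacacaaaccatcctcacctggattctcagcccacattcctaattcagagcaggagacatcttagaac
Pdcd1 and Tigit each held 2 GGAAA matches, those of Pdcd1 side by side, and Havcr2 held 1 TGANTCA match and no GGAAA. This Cd160 window held neither, and another RefSeq start of Cd160 held 1 GGAAA match. Of the genes not shown, Pvrig held 2 GGAAA matches and Ctla4 1, and both were also higher in CD8 effector cells of PBS well 2. Btla held neither motif. On either strand GGAAA was present in 55.6% and TGANTCA in 6.75% of 32851 promoter windows of the same length, so a match is a description of the letters and not a site in use. Lag3 had no entry.

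Cd160 (ENSMUSG00000038304, chr3:96798763-96829351, minus strand), a receptor of NK cells and cytotoxic T cells, was lower in each treated well than in either PBS well in 5 gates. These gates come from the same 5 wells and are not separate repeats, and the share of genes lower in all of them was not counted. NK cells had 75.1, 101 and 70.2 CPM in treated wells and 141 and 297 in PBS wells 1 and 2. The Trdc gate had 47.7, 49.1 and 50.6 CPM in treated wells and 84.4 and 342 in PBS. Conventional CD4 cells had 15.3, 14.3 and 8.24 CPM in treated wells and 28.6 and 25.5 in PBS, the gate in which both PBS wells were alike. Other T cells had 16.6, 12.0 and 12.4 CPM in treated wells against 23.4 and 109 in PBS, and CD8 effector cells 15.9, 17.7 and 17.9 against 22.5 and 96.0. The other CD8 cells were an exception, where 1 treated well (32.7 CPM) exceeded PBS well 1 (28.6).

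The PBS library was 3.06-fold higher in NK cells (2.23 to 4.29), 4.85-fold in the Trdc gate (3.73 to 6.37), 2.87-fold in other T cells (2.33 to 3.54), 3.20-fold in CD8 effector cells (2.48 to 4.13) and 2.19-fold in conventional CD4 cells (1.62 to 2.97). PBS well 2 set much of this outside CD4 cells. Against PBS well 1 alone the folds were 1.69 in NK cells (1.04 to 2.70), 1.71 in the Trdc gate (1.10 to 2.62), 1.65 in other T cells (1.26 to 2.15), 1.33 in CD8 effector cells (0.869 to 1.99) and 2.25 in conventional CD4 cells (1.61 to 3.12). The CD8 effector interval included 1. Wells of the libraries did not overlap for 19.4% of 7292 genes in the NK gate and 21.6% of 7902 in the conventional CD4 gate, and 9.72% and 2.3% of genes also differed by 1.5-fold. In the CD8 effector gate 18.7% of genes were lower and 22.1% had wells apart, and among other T cells 1.98% and 19%.

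**Figure D5:**
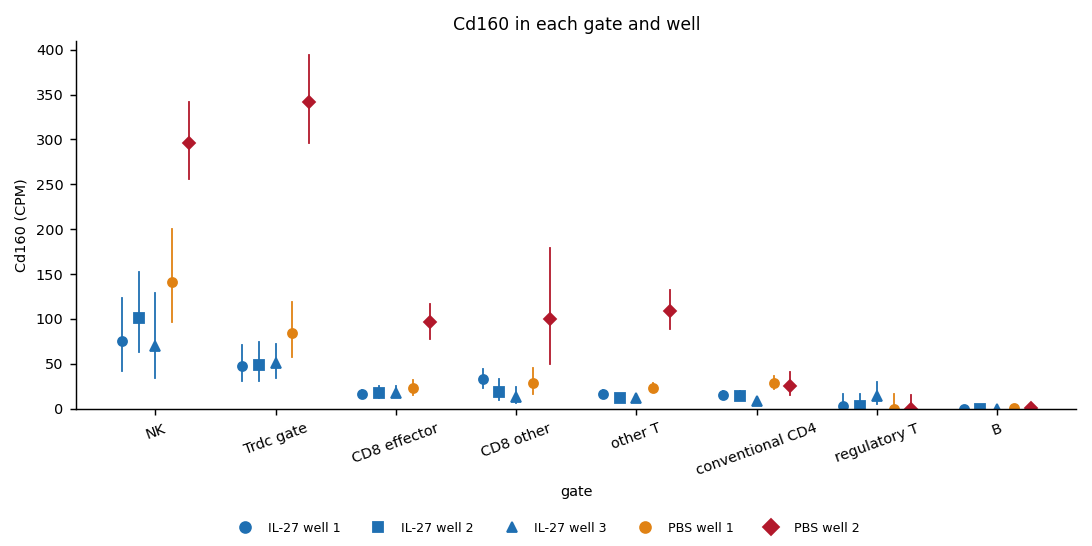
Cd160 (CPM) by gate, 1 point per well with its exact 95% Poisson interval. Blue treated wells lie below orange PBS well 1 and red PBS well 2 in the NK, Trdc, CD8 effector, other T and conventional CD4 gates, with intervals that meet those of PBS well 1 in most of them.

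Shares of cells were less clear for Cd160 than summed UMIs. After thinning, a UMI was found in 7.25%, 6.06% and 7.50% of NK cells in treated wells and 11.4% and 11.9% in the PBS wells, which kept the order. Unthinned the NK shares were 18.3%, 20% and 16.7% against 21.4% and 36.2%. In conventional CD4 cells the thinned shares were 1.22%, 1.16% and 0.316% against 3.02% and 1.95%. In the Trdc and CD8 effector gates PBS well 1, with 1 of 82 and 2 of 213 thinned cells, did not lie above the treated wells. Unthinned, conventional CD4 shares were 4.05%, 4.08% and 2.50% against 8.44% and 7.55%, and Trdc shares 12.6%, 10.4% and 14.1% against 13.4% and 49.5%. B cells had Cd160 in 1 of 11590 cells of the IL-27 library and 20 of 8067 of the PBS library, at median depths of 2814 and 2783 UMIs. Their level too was higher in PBS, at 0.870 CPM against 0.0277. The part of RNA from other cells in the result was not tested. Regulatory T cells held 8 UMIs in IL-27 and 0 in 104 PBS cells, where 3 UMIs would be 6.25 CPM.

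In the NK gate 4 receptors could be measured, and Cd160 was the only one at least 1.5-fold lower in IL-27, where 11.1% of genes were lower. Tigit, which NK cells use to sense nectins, was 25.03, 45.7 and 84.3 CPM in treated wells and 26.5 and 81.0 in PBS. Pvrig, known from NK cells, was 45.1, 27.4 and 49.2 CPM in treated wells and 44.2 and 55.0 in PBS. Both overlapped between groups. By the mean over wells the NK gate was the highest of 19 ranked gates for Pvrig and Cd160. This did not hold in PBS well 2. There CD8 effector cells had more Pvrig (60.2 against 55.0 CPM) and the Trdc gate more Cd160 (342 against 297 CPM). Havcr2 and Btla had no UMI in 455 NK cells, where 3 UMIs would be 2.08 CPM. The gate had Gzma, a granzyme of NK cells, at 7042 CPM and the B-cell gene Cd79a at 18.7.

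Btla (ENSMUSG00000052013, chr16:45224315-45257670, plus strand) was highest in B cells with Fcer2a and in conventional dendritic cells, among the 19 ranked gates. Mean Btla levels over wells were 96.5 and 93.9 CPM, with these B cells above the dendritic cells in 2 of 4 wells. The B gate had 97.7, 93.3 and 68.7 CPM in treated wells and 94.9 and 87.7 in the PBS wells, a library ratio of 0.928 (0.878 to 0.980). It was the only member measured there, and 0.774% of 7752 genes differed by 1.5-fold in either direction. B cells with Fcer2a, which marks follicular cells, had 74.9 to 106 CPM, and those with Zbtb32 or Bhlhe41 38.7 to 61.8, lower in all 5 wells. Conventional dendritic cells, which use BTLA and HVEM in exchanges with T cells, had 102 CPM over both libraries. Conventional CD4 cells had 21.0 to 30.1 CPM, with overlapping groups.

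Havcr2 had its own place in myeloid cells. Conventional dendritic cells had 28.3, 37.0 and 41.3 CPM in treated wells and 125 in PBS well 2, which held 23 of them. PBS well 1 gave 136 CPM from 9 cells, under the minimum of 10 cells per well used to rank gates. The IL-27 and PBS libraries held 12 and 40 UMIs in 41 and 32 dendritic cells. The gate was too small to be compared by the rule of 50 cells per library. Macrophages had 19.1 CPM in the IL-27 library and 20.9 in PBS, and mast cells of PBS well 2 48.7 CPM from 12 UMIs. In conventional CD4 cells Havcr2 was 0.623, 6.38 and 3.94 CPM in treated wells against 1.94 and 58.5 in PBS wells 1 and 2.

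Ligands and partners of the receptors were compared in conventional CD4 cells, where 1.73% of all genes were higher in IL-27 and 1.82% lower. Of 16 ligand genes 9 could be measured in conventional CD4 cells, and 1 was lower, Lgals3 (galectin 3, a ligand of LAG-3), at 9.70 CPM in the IL-27 library and 20.9 in PBS. By well Lgals3 was 6.55, 13.9 and 9.31 CPM in treated wells and 14.1 and 42.0 in PBS wells 1 and 2. The costimulatory receptors gave 0 of 11 at 1.5-fold, with Cd28, the competitor of CTLA-4, at 279.7 CPM in the IL-27 library and 321 in PBS and Cd226, the counterpart of TIGIT, at 30.6 and 31.9. Tnfrsf14, which encodes the shared ligand HVEM, was 90.1 and 78.1 CPM. Inhibitory signalling genes gave 1 lower of 12, the adaptor Grb2 (83.7 and 132 CPM). Grb2 was 76.7, 67.6 and 107 CPM in treated wells and 140 and 108 in PBS wells 1 and 2. Other inhibitory receptors gave 2 lower of 8, both with overlapping wells and highest in PBS well 2. Of 16 measured regulators Nr4a2 was lower (7.96 and 24.6 CPM) and Nr4a3 higher (29.2 and 19.1). Median log2 ratios of these 5 lists were between -0.33 and -0.03, beside 0.01 over all genes.

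In regulatory T cells several list genes differed, in a gate where 19.5% of all genes did. Cd274, which encodes the PD-1 ligand PD-L1, was 17.2, 11.3 and 4.54 CPM in treated wells and 30.0 and 28.4 in PBS, and Lgals3 was 25.9, 62.4 and 47.7 against 107 and 114. H2-Aa, of MHC class II, was 25.9, 25.5 and 20.4 CPM against 81.4 and 48.7. Vsir, which encodes VISTA, was 89.1, 70.9 and 56.7 CPM against 98.6 and 174. Nr4a2 was 5.75, 2.84 and 2.27 CPM against 55.7 and 12.2, and Eomes was 23.0, 11.3 and 27.2 against 8.57 and 0. Cd101 was 5.75, 17.0 and 13.6 CPM against 17.1 and 52.7, and Cd72 was 11.5, 11.3 and 9.08 against 25.7 and 12.2. Inpp5f, a phosphatase gene, was 20.1, 42.6 and 38.6 CPM against 72.9 and 52.7, and Id2 was 74.7, 59.6 and 77.2 against 98.6 and 231. Of ligands 3 of 9 were lower and none higher, of other inhibitory receptors 3 lower and 1 higher of 9, and of regulators 5 lower and 2 higher of 15. Of costimulatory receptors 0 of 11 differed, and of inhibitory signalling genes 2 of 12 were lower and none higher. Median log2 ratios of these lists were between -0.41 and -0.08, beside -0.03 over all genes. B-cell markers in this gate summed to 184 to 313 CPM in treated wells and 540.1 and 170 in PBS, and epithelial markers to 397 CPM in PBS well 2 and 25.9 to 64.3 elsewhere, with all 5 detected. Their part in these differences was not tested.

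Across the 19 gates with at least 50 cells, the receptors varied together to different degrees. Pdcd1 and Ctla4 had a correlation of log2 levels of 0.91, Tigit and Ctla4 0.87 and Lag3 and Pdcd1 0.86, while Btla and Cd160 had -0.53 and Havcr2 stayed between -0.03 and 0.28 with all others. These points share libraries and depth, so the values are a description. Among 10253 genes the pattern over gates most like Lag3 was that of Gstp3 (0.976), then Ikzf2 and Ubash3a. Pdcd1 was closest to Themis (0.979), Bcl11b and Cd6, Tigit to Kif5c (0.950), Ctla4 to Kcnf1 (0.954) and Cd160 to Xcl1 (0.960). Havcr2 was closest to Cpne2 (0.830), Btla to Bmyc (0.835) and Pvrig to Cxcr6 (0.893).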

How the data were processed

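Raw UMI counts for each barcode and gene were deposited, made by the authors with Cell Ranger 3.0.0 and mm10 per the submitters' processing notes, while the headers name software version 3.1.0. Cells with under 200 genes or over 10% mitochondrial UMIs were removed (318 in IL-27, 483 in PBS). Gates used raw UMIs of fixed markers, mostly at least 2 UMIs, and cells of more than 1 lineage (3.52% to 6.60% of wells) were left out as mixed. Scrublet marked 0.0183% of PBS well 2 and had not worked there, so its calls were removed only as an alternative. UMIs were summed by gate and well or library and scaled to CPM, with 95% Poisson intervals and exact conditional intervals of ratios. A difference was counted at 1.5-fold with at least 20 UMIs over both libraries and 10 CPM in the higher, in gates with at least 50 cells per library. Log2 ratios have a pseudocount of 1 CPM. No test was run, since each group is 1 library. Named were the 8 receptors, list genes differing by 1.5-fold with wells that did not overlap (up to 5 per list), partners of the receptors, and the genes closest over gates. The members and lists were chosen with earlier results of these data known. On simulated conventional CD4 counts changes of 1.5-fold were counted in 48% and of 2-fold in 100% of 50 genes each, and 0.762% of 7483 genes left alone were counted too. The simulation held counting error only, with no difference between wells or mice, so 0.762% is not the rate for these libraries. Alternatives varied gates, filters, doublets, scaling (TMM, edgeR 4.0.16), depth and wells. Gene positions come from GENCODE M21 (GRCm38, also called mm10) and upstream sequences from RefSeq (GRCm38.p6). Python 3.11.15, scipy 1.17.1 and scanpy 1.11.5 were used. Some finer gates and markers are not reported here.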

Additional observations from a re-analysis of the deposited data

How the results depend on the processing

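Counts of receptors at least 1.5-fold apart between libraries rested mostly on PBS well 2. Leaving out 1 well at a time gave 2 to 6 in conventional CD4 cells (4 with all wells, 2 without PBS well 2), 0 to 4 in regulatory T cells (3 with all wells, 0 without PBS well 2 and 1 without IL-27 well 1), 2 to 8 in CD8 cells (6 with all wells, 2 without PBS well 2), 1 to 2 in NK cells (1 with all wells) and 0 in B cells (0 with all wells). Without PBS well 2 some log2 ratios of IL-27 over PBS changed sign, to 0.74 for Tigit and 0.60 for Havcr2 in conventional CD4 cells, 0.58 for Tigit and 0.31 for Ctla4 in regulatory T cells and 1.06 for Tigit in CD8 cells. Without PBS well 1 these were -2.72, -3.74, -1.37, -1.19 and -5.05, the lowest when 1 well was left out. With no filter on low values the counts were 6 in regulatory T, 2 in NK and 4 in B cells, since more receptors are then counted. The NK count was 2 with a Cd3 sum of at least 1 and 2 with no B-lineage UMI allowed, and the cause was not tested. Of 25 log2 ratios, 15 moved by more than their interval without PBS well 1, 13 moved and 5 changed sign without PBS well 2, 8 moved with cells thinned to 1000 UMIs, 7 with the mean of wells, 6 without IL-27 well 1 and 5 with TMM scaling. No paired analysis was possible because each group is 1 library. Depth limited ratios that rest on few UMIs, such as that of Ctla4 between the PBS wells in CD8 effector cells (interval 6.55 to 217).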
